A study of Mus musculus with 16 samples.

Results

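Keratins are the intermediate filament proteins of epithelial cells. The genes described are all mouse genes whose symbol is Krt and a number alone, 50 genes in the GENCODE annotation, of which 43 had a row among the 32989 identifiers counted. Of these, 17 reached a mean of 5 unique molecular identifiers (UMIs, tags that mark single RNA molecules) per library and were tested, and 9 reached a mean of 50. The genes were assigned by background knowledge to type I (26 annotated) and type II (24 annotated), and to basal, suprabasal, stress, simple epithelial, hair and other keratins. Krt6a and Krt6b carry a letter, fall outside the symbol rule, and are described beside the stress keratins as non-members. RNA came from organoids (the 3D–3C culture) of C57BL/6J hair follicle stem cells (HFSCs) kept for 2 weeks. Before sorting on integrin α6 and CD34, part of the organoids received the polyamine derivative N1-acetylspermidine, called N1-AcSpd below, for 72 h, and the rest nothing. The 4 groups were untreated α6+/CD34− progenitors, N1-AcSpd α6+/CD34− progenitors, untreated α6+/CD34+ HFSCs and N1-AcSpd α6+/CD34+ HFSCs. Each held 1 library from each of 4 mice, with no mutant allele or other agent in the labels, which title the untreated libraries WT and give their treatment as control, and no cells taken directly from skin were sequenced.

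A keratin filament is built from pairs of 1 type I and 1 type II chain, so the genes are usually read as partners. Krt5 and Krt14 form the network of proliferating basal keratinocytes, and Krt15 is an additional basal type I chain known as a marker of the hair follicle bulge, where HFSCs reside. Krt1 and Krt10 replace them as cells leave the basal layer. Krt6a, Krt6b, Krt16 and Krt17 are low in resting interfollicular epidermis, are induced in wounded or hyperproliferative skin, and are also made in parts of the hair follicle. Hair keratins build the hard shaft and its sheaths. Most type I genes lie in 1 cluster and the type II genes in another. The annotated type I members were on chromosome 11 except Krt18, which lay with the type II genes on chromosome 15 (GRCm38).

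The 16 libraries held 15480075 to 29074855 UMIs, with UMIs for 22142 to 24247 genes. The sort marker Cd34 was higher in CD34+ cells by 3.97 ± 0.117 (SE) on the log2 scale untreated and 4.03 ± 0.117 with N1-AcSpd, and its libraries did not overlap. Itga6 (integrin α6) was present in every group, at 45.8 to 68.8 CPM (UMIs scaled to a common TMM-adjusted library total) in untreated libraries, and was lower in CD34+ cells by edgeR (log2 difference −0.34, adjusted p = 0.000901, and −0.17, 0.0437, with N1-AcSpd). Keratinocyte markers summed to 946 to 1386 CPM over all libraries, with 3 of 5 lower and 2 higher in CD34+ cells in both conditions. Markers of fibroblasts reached at most 1.52 CPM in sum, those of immune cells 2.03, those of Merkel cells 2.29 and those of sebocytes 2.77. The melanocyte list summed to 28.0 to 35.7 CPM, carried by Mitf and Pmel, with the defining Dct and Tyrp1 at 0 in some libraries of both untreated groups. Of the endothelial list, Pecam1 was read at 1761 to 2054 CPM in untreated libraries while Kdr stayed at or below 0.359 CPM. Of single markers, 1 fibroblast, 1 sebocyte (Scd3, 174 against 93 UMIs untreated) and 1 endothelial gene (Pecam1) were called lower in CD34+ cells in both conditions, and 1 melanocyte gene was higher untreated. The part of these other cells in the keratin results was not tested.

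RefSeq start sites on GRCm38.p6 were at hand for 35 of the 50 members, and are used here to show what these 35 promoters look like on the letters. TATAAA, the core of the TATA box, was searched on both strands of the 300 bases from 250 before to 50 after the start. It occurred in 18 of the 35 (51.4%) and in 14.2% of 27025 promoters of all genes. On the gene's own strand between 20 and 40 bases before the start, where a TATA box usually lies, it occurred in 13 of 35 (37.1%) and in 2.22% of all promoters. Of these 13 genes, only Krt10 and Krt32 had enough UMIs to be tested. A GC box, GGGCGG, was in 5.71% of the keratin promoters and 35.9% of all, and the AP-1 motif TGANTCA in 2.86% and 7.93%. The 100 bases before the start are printed for 5 genes that the results below turn on, 5′ to 3′ on the gene's strand, with TATAAA on that strand in capitals. Krt10 and Krt32 hold it, Krt5, Krt78 and Krt90 do not. The search took exact letters only, and Krt5 and Krt78 hold gataaa, which differs from it in the first letter.
Krt10 (chr11:99389365-99389464, minus strand): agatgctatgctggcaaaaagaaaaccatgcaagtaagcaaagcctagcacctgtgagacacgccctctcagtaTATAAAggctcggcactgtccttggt
Krt32 (chr11:100088270-100088369, minus strand): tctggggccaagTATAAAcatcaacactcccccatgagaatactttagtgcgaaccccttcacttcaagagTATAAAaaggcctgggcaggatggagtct
Krt5 (chr15:101712906-101713005, minus strand): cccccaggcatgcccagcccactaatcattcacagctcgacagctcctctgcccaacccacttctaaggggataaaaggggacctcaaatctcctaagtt
Krt78 (chr15:101954288-101954387, minus strand): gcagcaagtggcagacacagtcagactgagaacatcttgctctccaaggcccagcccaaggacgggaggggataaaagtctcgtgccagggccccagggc
Krt90 (chr15:101562951-101563050, minus strand): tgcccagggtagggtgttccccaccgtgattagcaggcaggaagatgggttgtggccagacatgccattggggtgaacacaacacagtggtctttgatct
The genes that hold TATAAA in this window include one that was lower in HFSCs (Krt10) and one that was higher (Krt32). Of the genes printed without it, Krt78 was lower, Krt90 higher and Krt5 not called. These matches describe letters only. No start site was at hand for Krt15, Krt16, Krt17, Krt6a or Krt6b, so their promoters are not shown and the shares above leave them out.

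Keratin RNA was abundant and concentrated in few genes. The members together held 0.962% ± 0.0444 (SD, n = 4) of all UMIs in untreated CD34− libraries and 0.853% ± 0.0434 in untreated CD34+ libraries. Adding Krt6a and Krt6b gave 1.35% ± 0.0808 and 1.05% ± 0.0592. Because the protocol counts 3′ molecules, these levels are compared between genes without dividing by length. Krt14 ranked between 2 and 6 among all genes across the 16 libraries, Krt17 between 18 and 100, Krt5 between 162 and 234 and Krt16 between 238 and 744. Krt15 lay between 447 and 3836. The plot of keratin levels by class shows this spread on a log axis.

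**Figure D1:**
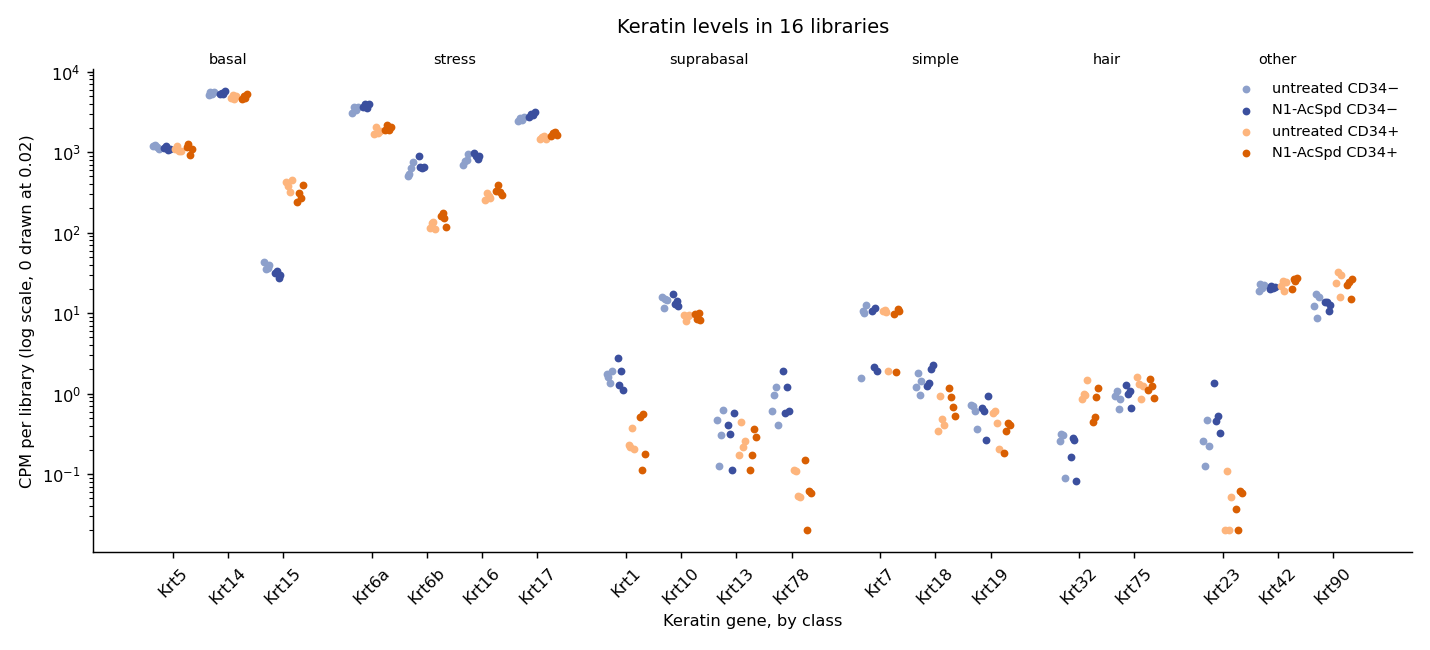
CPM of the 17 tested keratins and of Krt6a and Krt6b (log axis, 0 drawn at 0.02), 1 point per library, in 4 groups of 4 coloured by cell type and treatment. Krt14 sits between 4598 and 5714 CPM in every library, Krt15 between 27.3 and 42.7 CPM in CD34− and between 238 and 446 CPM in CD34+ libraries, and Krt7 forms a low and a high set of libraries in every group.

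The first comparison asked which keratins separate HFSCs from progenitors in untreated organoids. Of the 17 tested members, 11 were called by edgeR at an adjusted p under 0.05, where 32.1% of all 19049 genes were called. The 3 higher in CD34+ HFSCs were Krt15, Krt32 and Krt90, and the 8 lower were Krt14, Krt16, Krt17, Krt10, Krt1, Krt78, Krt18 and Krt23, where 16.1% of all genes were higher and 16.1% lower. The count over the tested members is a description, since 3 of them (Krt13, Krt23 and Krt78) had a mean under 5 in CD34+ or CD34− cells and passed the filter on low counts through the other. Among the 9 members with a mean of at least 50, which were well clear of that filter, 6 were called. The share called among all genes with such a mean was not computed, so this count is a description too. The median log2 fold change was −0.40 over the 17 members and 0.02 over all genes. In 9 of the 17 the CPM of the groups did not overlap, against 32.1% of all genes. Fewer cells of a type and less RNA per cell cannot be told apart in sorted bulk samples.

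Under N1-AcSpd the same comparison called 11 members, the same genes in the same directions, where 33.3% of all genes were called. The 3 higher stand beside 16.5% of all genes, and the 8 lower beside 16.8%. Groups did not overlap in 11 members, against 34.4% of all genes, and the median log2 fold change was −0.60 over members and −0.01 over all genes. The untreated and N1-AcSpd comparisons share mice but no libraries. By the interaction, which tests whether the cell type difference itself changed with N1-AcSpd, edgeR called 0 members (0.0% of all genes called), none had an unadjusted p under 0.05 (4.19% of all genes did), and DESeq2 called 0 (0.378% of all genes).

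**Figure D2:**
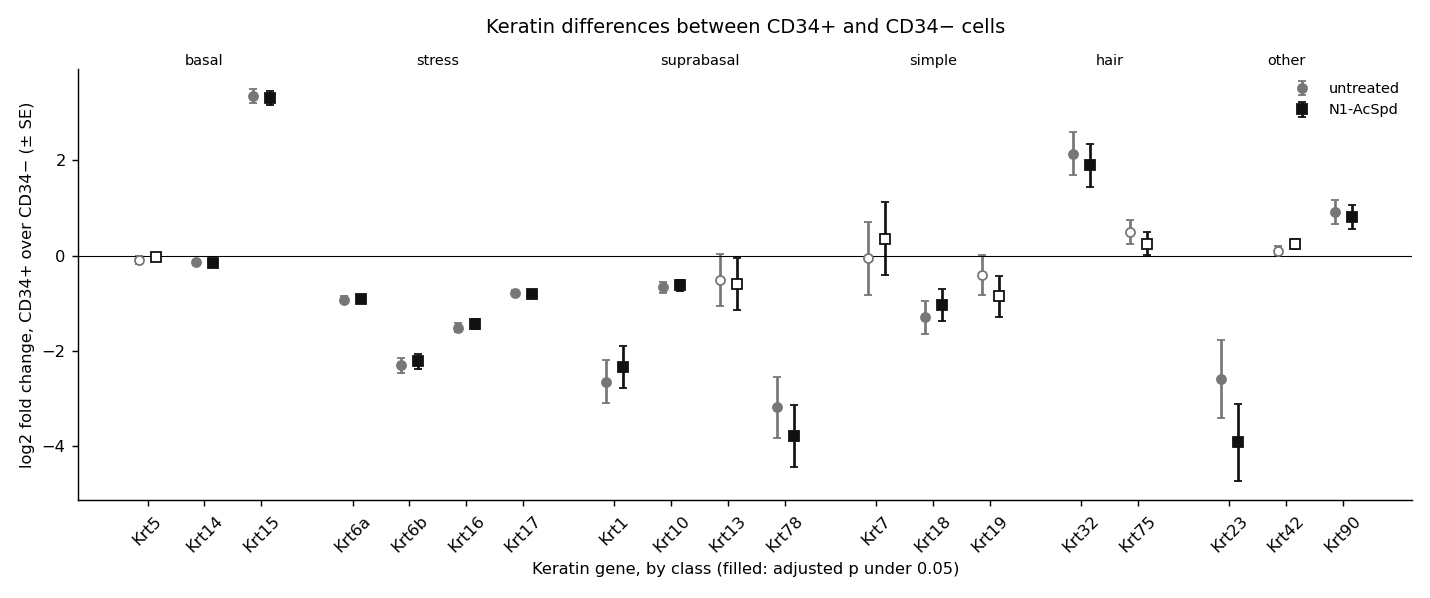
Log2 fold change of CD34+ over CD34− cells (± SE, edgeR, 4 libraries per group) for each tested keratin and for Krt6a and Krt6b, untreated (circles) and with N1-AcSpd (squares), with filled symbols for an adjusted p under 0.05. Krt15, Krt32 and Krt90 are above 0, the stress keratins and the called suprabasal keratins below. The estimates of both conditions differ most for Krt23 and next for Krt78.

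Among the basal keratins, Krt15 showed the largest increase of any member in HFSCs. In mice 1 to 4 its CPM was 42.7, 35.7, 36.0 and 40.04 in the untreated CD34− libraries, and 424.9, 379.9, 319.6 and 446 in the untreated CD34+ libraries. Krt15 (ENSMUSG00000054146, chromosome 11, 100131758 to 100135928) was therefore about 10 times higher in each mouse, with no overlap between groups. The log2 difference was 3.35 ± 0.149 (SE, edgeR adjusted p = 1.83e-08). With N1-AcSpd, CD34− libraries held 31.3, 33.0, 27.3 and 29.7 CPM and CD34+ libraries 238, 309.7, 267 and 386 CPM. That log2 difference was 3.31 ± 0.149 (edgeR adjusted p = 1.18e-08). The nearest keratin genes on either side of Krt15 were not called. Krt13, 10.2 kb away, differed by −0.51 ± 0.547 on the log2 scale in untreated cells (edgeR adjusted p = 0.554), and Krt19, 4.88 kb away on the other side, by −0.40 ± 0.419 (edgeR adjusted p = 0.54). Both stayed below 1 CPM, and both were named after their values were seen.

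Krt14 and Krt5, the basal filament pair, differed little between the cell types. Krt14 (ENSMUSG00000045545) ran at 5191, 5525, 5223 and 5556 CPM in untreated CD34− libraries and at 4666, 5199, 4598 and 5009 CPM in untreated CD34+ libraries. It was lower in HFSCs in 4 of 4 mice, although the groups overlapped. The fitted log2 difference was −0.14 ± 0.0483 (edgeR adjusted p = 0.0365) untreated and −0.15 ± 0.0483 (edgeR adjusted p = 0.0289) with N1-AcSpd. The call depended on the scaling and on single libraries. When TMM was replaced by library totals, the values were −0.03 in both conditions (edgeR adjusted p = 0.759 and 0.728), where the median of all genes moved to 0.14 and 0.11. It was also lost without CD34− libraries of mouse 2 (0.0896) or 4 (0.0929) or CD34+ libraries of mouse 1 (0.0986) or 3 (0.0738) of the untreated groups, given as edgeR adjusted p. Under N1-AcSpd it was lost without CD34− mouse 2 (0.0553) or 4 (0.0906), CD34+ mouse 1 (0.0862), 2 (0.0592) or 3 (0.0829), or untreated CD34+ mouse 4 (0.0567), again by edgeR adjusted p. Leaving out a whole mouse lost it for each of the 4 mice untreated (0.066 to 0.111) and for mice 1, 2 and 3 with N1-AcSpd (0.0619 to 0.115). With N1-AcSpd it was lost, too, when the compared groups alone were fitted (−0.13, edgeR adjusted p = 0.0636).

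Krt5 (ENSMUSG00000061527, chromosome 15, 101707070 to 101712898), the type II partner, held 1163 ± 64.6 CPM (SD, n = 4) in untreated CD34− and 1088 ± 78.1 CPM in untreated CD34+ cells. Its log2 difference was −0.10 ± 0.0815 (edgeR adjusted p = 0.431) untreated and −0.03 ± 0.0815 (0.852) with N1-AcSpd. The UMI ratio of Krt5 to Krt14 lay between 0.192 and 0.248 in all 16 libraries, with means of 0.217 and 0.224 in untreated CD34− and CD34+ cells and 0.208 and 0.226 with N1-AcSpd. By contrast the ratio of Krt5 to Krt15 was 30.3 ± 3.45 in untreated CD34− and 2.81 ± 0.426 in untreated CD34+ libraries. The summed basal members took 0.630% ± 0.0235 and 0.659% ± 0.0418 of UMIs in these groups, with overlapping libraries. The order turned with the scaling, since as shares of TMM-scaled totals they held 0.6576% and 0.6349%.

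The stress keratins were lower in HFSCs, without exception among the 2 members and the 2 letter-suffixed genes. Krt16 (ENSMUSG00000053797), the type I partner of the Krt6 chains, held 685, 766, 792 and 941 CPM in untreated CD34− libraries and 257, 307, 282 and 269.8 CPM in untreated CD34+ libraries. The highest HFSC library was below the lowest progenitor library. The log2 difference was −1.51 ± 0.102 (edgeR adjusted p = 4.71e-07). With N1-AcSpd the libraries held 973, 899.8, 829 and 894 CPM in CD34− and 331, 391, 316 and 294 CPM in CD34+ cells, a log2 difference of −1.43 ± 0.102 (edgeR adjusted p = 4.38e-07).

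Krt17 (ENSMUSG00000035557), which is known from skin appendages and wound edges, was the most abundant stress member. Untreated CD34− libraries held 2456, 2688, 2509 and 2737 CPM and untreated CD34+ libraries 1472, 1563, 1573 and 1455 CPM. The groups stood apart, by −0.78 ± 0.0509 on the log2 scale (edgeR adjusted p = 3.84e-07), and by −0.80 ± 0.051 with N1-AcSpd (2.05e-07). Of the non-members, Krt6a fell by 0.92 ± 0.0784 on the log2 scale, from 3437 ± 308 to 1812 ± 164 CPM (edgeR adjusted p = 1.55e-06). Krt6b fell by 2.31 ± 0.158, from 610.9 ± 112 to 123.5 ± 11.9 CPM (edgeR adjusted p = 4.73e-07).

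The balance among these 4 genes differed between the cell types. The UMI ratio of Krt6a to Krt16 was 4.35 ± 0.381 in untreated CD34− and 6.50 ± 0.289 in untreated CD34+ libraries, and that of Krt6b to Krt17 was 0.235 ± 0.0368 and 0.0814 ± 0.00456. In both ratios the ranges of both groups did not overlap, and no test was made of them. As a share of all UMIs, the stress members held 0.325% ± 0.0233 in untreated CD34− and 0.186% ± 0.00574 in untreated CD34+ libraries, and Krt6a with Krt6b 0.388% ± 0.0379 and 0.201% ± 0.0171. A limit is shared sequence. Of the 31-base words in the annotated transcripts, 51.9% of Krt16, 28.2% of Krt14, 15.8% of Krt17, 62.0% of Krt6a and 57.0% of Krt6b also occur in another gene. Over the last 500 bases, where 3′ tags fall, the share was 32.6% for Krt16, 17.2% for Krt14 and Krt17, 18.2% for Krt6a, 1.28% for Krt6b and 0.0% for Krt15 and Krt5. How the authors' counting split such reads was not tested.

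**Figure D3:**
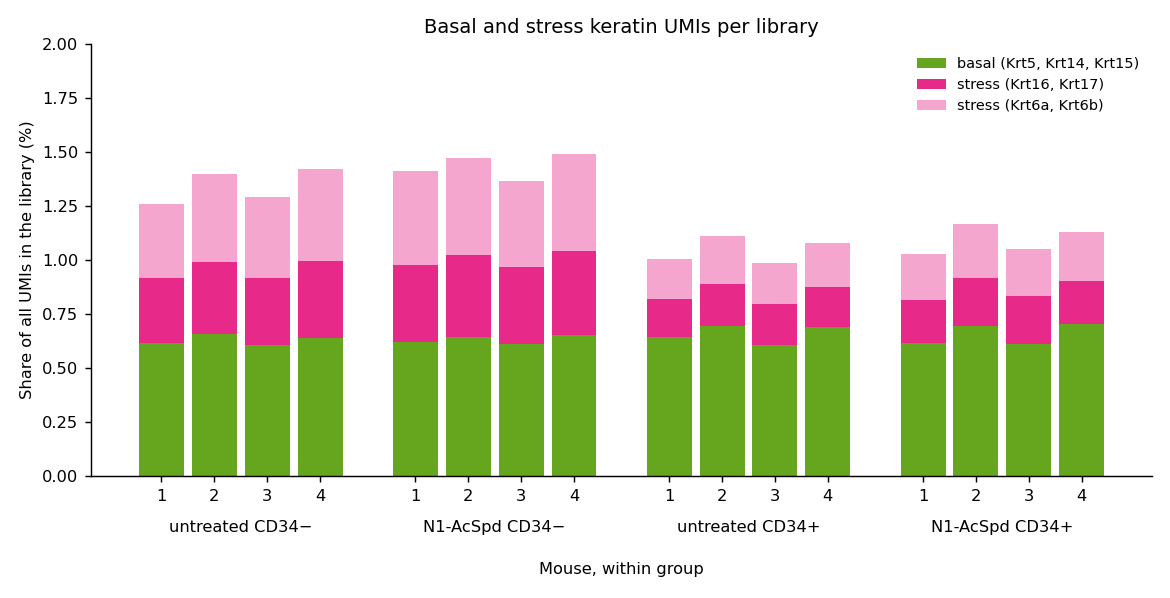
Share of all UMIs held by the basal members, the stress members and Krt6a with Krt6b in each of the 16 libraries, stacked from 0. The basal part is of like height in all groups, and the stress parts are shorter in the CD34+ than in the CD34− libraries.

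The suprabasal keratins had little RNA in these α6+ cells, and what there was lay mainly in progenitors. Of 11 members, all with a row, 4 were tested and 3 were called lower in both conditions. Beside them, 16.1% of all genes were lower untreated and 16.8% with N1-AcSpd. The count is a description, since Krt13 and Krt78 had a mean under 5 in 1 cell type and passed the filter through the other. Krt10 (ENSMUSG00000019761), the type I chain of the spinous layer, held 16.0, 11.6, 15.02 and 14.4 CPM in untreated CD34− libraries and 9.44, 7.90, 9.21 and 9.40 CPM in untreated CD34+ libraries. The groups did not overlap, and the log2 difference was −0.67 ± 0.12 (edgeR adjusted p = 0.000804) untreated and −0.63 ± 0.12 (0.00104) with N1-AcSpd. Its partner Krt1 (ENSMUSG00000046834) held 1.76, 1.60, 1.34 and 1.89 CPM in untreated CD34− and 0.228, 0.219, 0.379 and 0.205 CPM in untreated CD34+ libraries. Its log2 difference was −2.65 ± 0.447 untreated (edgeR adjusted p = 0.000468) and −2.34 ± 0.433 with N1-AcSpd (0.000813). The UMI ratio of Krt1 to Krt10 was 0.117 ± 0.0221 in untreated CD34− and 0.0287 ± 0.00865 in untreated CD34+ libraries, with no overlap.

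Krt78, a type II keratin of differentiated stratified epithelium, had most of its UMIs in progenitors. It had 66 UMIs over the 4 untreated CD34− libraries against 6 in untreated CD34+ libraries, and 109 against 6 with N1-AcSpd. On the log2 scale the difference was −3.19 ± 0.64 (edgeR adjusted p = 0.00172) and −3.79 ± 0.644 (0.000425). The second became −4.57 without N1-AcSpd CD34+ mouse 1, which held 4 of the 6 UMIs. Krt13, the fourth tested gene and known from internal stratified epithelia, held 34 and 20 UMIs in the untreated groups and was not called in any comparison. The other 7 suprabasal members (Krt2, Krt4, Krt9, Krt24, Krt76, Krt77 and Krt80) had totals of 1 to 72 UMIs over all 16 libraries and were not tested in the main fit. The largest of these totals was that of Krt76, with 22 UMIs in untreated CD34− against 4 in untreated CD34+ libraries (ratio 4.82, 95% counting interval 1.64 to 19.2), and 43 against 3 with N1-AcSpd (10.8, 3.46 to 54.5). These intervals cover counting error only, and Krt76 was singled out after its values were seen. With no filter on low counts it was called with N1-AcSpd, where 5564 of 32989 genes were. The gene is uncertain, because the overlapping model Gm44356 on the other strand had 51 UMIs to its 72, with a correlation of 0.964.

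Simple epithelial keratins, which form the filaments of single-layered epithelia, were scarce. Krt18 (ENSMUSG00000023043) held 1.20, 1.79, 0.952 and 1.44 CPM in untreated CD34− and 0.341, 0.932, 0.488 and 0.411 CPM in untreated CD34+ libraries, so the groups only just stood apart. The log2 difference was −1.30 ± 0.351 (edgeR adjusted p = 0.0116) untreated and −1.04 ± 0.34 (0.0287) with N1-AcSpd. The second call was lost without N1-AcSpd CD34− mouse 3 (0.0729) or 4 (0.084) or N1-AcSpd CD34+ mouse 2 (0.0526), 3 (0.0718) or 4 (0.0814), by edgeR adjusted p. Without mouse 4 both calls were lost (0.0733 and 0.224), and without mouse 3 the second (0.17). Its partner Krt8 had 28 UMIs in all 16 libraries together, 15 of them in untreated CD34− cells, so the Krt8 to Krt18 pair could not be read. Krt19, which marks parts of the outer root sheath and bulge, lay between 0.186 and 0.943 CPM and was not called in any comparison. Krt20 had 12 UMIs in all.

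Krt7 fell into a low and a high set of libraries that matched neither cell type nor treatment. In mice 1 to 4 the untreated CD34− libraries held 1.55, 10.7, 10.1 and 12.8 CPM, and N1-AcSpd CD34− libraries 10.7, 2.16, 11.7 and 1.89 CPM. Untreated CD34+ libraries held 10.5, 11.02, 10.2 and 1.90 CPM, and N1-AcSpd CD34+ libraries 9.84, 1.88, 11.4 and 10.6 CPM. No library lay between 2.16 and 9.84 CPM, and each group had 1 or 2 low libraries. Mouse 3 was high in all 4 groups, while mice 1, 2 and 4 each had both kinds. The log2 difference between cell types was −0.06 ± 0.764 untreated (edgeR adjusted p = 0.975) and 0.35 ± 0.765 with N1-AcSpd (0.802), the widest error of the 9 well-covered members.

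**Figure D4:**
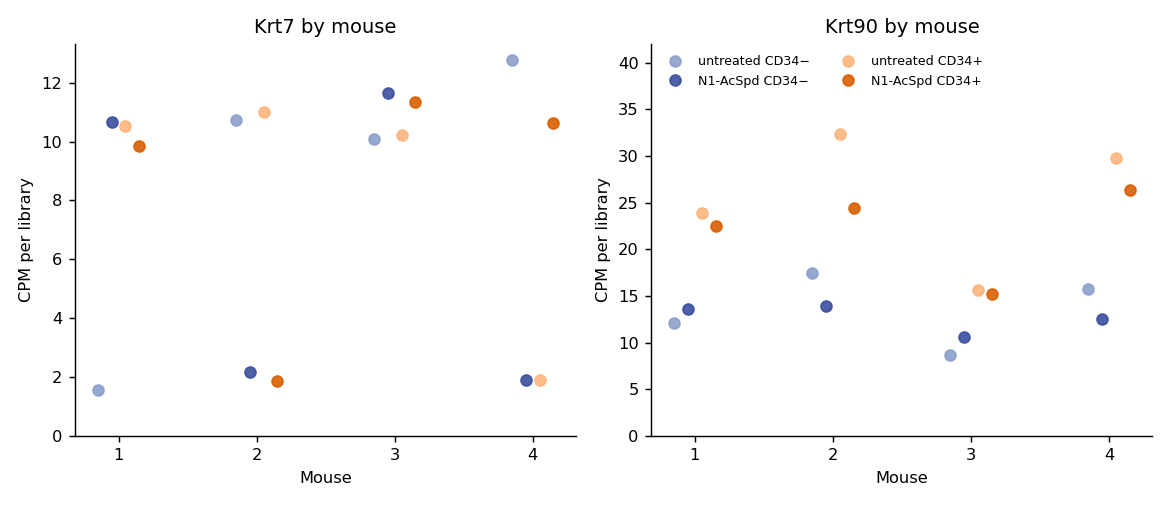
CPM of Krt7 (left) and Krt90 (right) in each library, by mouse and coloured by group, on axes from 0. Krt7 takes values up to 2.16 or from 9.84 CPM upwards with no order by group, while Krt90 is higher in both CD34+ than in the matching CD34− libraries of every mouse and lowest in mouse 3.

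Hair keratins were close to absent. Of 22 annotated members, 16 had a row and 2 were tested, Krt32 and Krt75. Krt32 (ENSMUSG00000046095), a type I keratin of the hair shaft cuticle, held 0.258, 0.319, 0.303 and 0.0902 CPM in untreated CD34− and 0.853, 0.987, 0.975 and 1.49 CPM in untreated CD34+ libraries. With N1-AcSpd the CD34− libraries held 0.165, 0.284, 0.266 and 0.082 CPM and the CD34+ libraries 0.445, 0.512, 0.92 and 1.17 CPM. The groups did not overlap in either condition, and the log2 difference was 2.13 ± 0.451 (edgeR adjusted p = 0.00243) and 1.89 ± 0.449 (0.00481). These values rest on 20 against 80 UMIs untreated and 21 against 56 with N1-AcSpd. They are uncertain as to the gene, because the overlapping antisense model Gm11571 had identical counts in all libraries, 177 UMIs in all for each. Krt75, a type II keratin of the companion layer, held 0.649 to 1.59 CPM over untreated libraries and was not called (log2 difference 0.50 ± 0.252, edgeR adjusted p = 0.154, and 0.25 ± 0.249, 0.511).

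The remaining 14 hair members with a row had totals of 1 to 38 UMIs over 16 libraries, and the 7 inner root sheath members among them 2 to 16. The largest total, that of the shaft keratin Krt35, came from 2 libraries alone, with 17 UMIs in N1-AcSpd CD34− mouse 4 and 21 in untreated CD34+ mouse 3, and 0 in the other 14. Krt26 of the inner root sheath similarly had 7 of its 16 UMIs in N1-AcSpd CD34+ mouse 1 and 7 in untreated CD34− mouse 4. Both were named after their values were seen. Genes of the hair shaft and matrix list (Hoxc13, Lef1, Msx2, Gata3, Tchh and Padi3) summed to 26.1 to 32.6 CPM in all libraries, with ranges that overlapped between CD34− and CD34+ cells. Krt34, Krt39, Krt40, Krt72, Krt81 and Krt87, and Krt12 of the cornea, had no row of counts and were not analysed.

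Of the 7 other members, Krt90, Krt42 and Krt23 were tested. Krt90 (ENSMUSG00000048699, chromosome 15, 101552356 to 101562950), a type II gene, held 12.1, 17.4, 8.66 and 15.8 CPM in untreated CD34− and 23.8, 32.4, 15.7 and 29.7 CPM in untreated CD34+ libraries. The groups overlapped through mouse 3, the lowest in both, but within each mouse the HFSC library was higher. Its log2 difference came to 0.91 ± 0.248 (edgeR adjusted p = 0.0118) untreated and 0.80 ± 0.247 (0.0221) with N1-AcSpd. The second was lost without N1-AcSpd CD34− mouse 3 (0.0638) or N1-AcSpd CD34+ mouse 4 (0.0634), by edgeR adjusted p. Without mouse 1 or mouse 4 both calls were lost (0.0831 and 0.0637 untreated, 0.101 and 0.137 with N1-AcSpd), and without mouse 2 the second (0.0697). Krt75, which lies 0.394 kb away, was not called.

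Krt42 (ENSMUSG00000053654), a type I gene 1.85 kb from Krt17, held 21.1 ± 1.92 and 22.6 ± 2.83 CPM in untreated CD34− and CD34+ cells. Its log2 difference was 0.10 ± 0.106 (edgeR adjusted p = 0.557) untreated and 0.24 ± 0.106 (0.102) with N1-AcSpd, and the latter was called once the mouse was added as a block (0.23 ± 0.0727, edgeR adjusted p = 0.0289, where that fit called 34.9% of all genes). It was also called with library totals, without N1-AcSpd CD34+ mouse 1 and without the whole of mouse 1, which makes 4 of 27 alternatives. The fall of Krt17, its neighbour, stands beside these values, and the difference between the genes was not tested. Krt23 had 24 UMIs in untreated CD34− against 3 in untreated CD34+ libraries (ratio 7.01, 95% counting interval 2.13 to 36.4) and 68 against 3 with N1-AcSpd (17.1, 5.61 to 85.1). The fitted log2 difference of −2.60 untreated became −3.57 without CD34+ mouse 2, −3.79 without the whole of mouse 2 and −1.83 without mouse 3. With N1-AcSpd, −3.92 became −3.32 without CD34− mouse 1 and −3.29 without the whole of mouse 1. The fit gave edgeR adjusted p = 0.0258 and 0.00176, and the first became 0.0589 with the mouse as a block, a fit that called 34.0% of all genes. It was also lost without untreated CD34− mouse 3 (0.0794) or untreated CD34+ mouse 1 (0.0613), 3 (0.0594) or 4 (0.0524), or without mouse 1 (0.0867), 3 (0.191) or 4 (0.0875), by edgeR adjusted p. Fitting the compared groups alone lost the untreated call too (edgeR adjusted p = 0.0598). With another filter on low counts Krt23 was not tested, and with no filter on low counts it stayed called in both conditions. Krt79, Krt88 and Krt222 had 1 to 13 UMIs in all.

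A list of 17 genes was described, of which 16 were tested. It named genes of proteins that hold or bundle keratin filaments, and also Vim, a filament gene of mesenchymal cells. In untreated cells 12 were lower in HFSCs and 0 higher, beside 16.1% of all genes lower. Plec, Eppk1, Pkp2 and Tchp were not called. This count and the one with N1-AcSpd below are a description, since the list was chosen with earlier results of these data known. Hrnr also passed the filter on low counts through CD34− cells. Untreated, Hrnr averaged 0.8571 CPM in CD34− and 0.1885 CPM in CD34+ libraries. The 12 were the desmosome genes Dsp, Pkp1, Pkp3 and Jup, the plakins Ppl, Evpl and Dst, the filament-bundling Flg with Hrnr and Tchh, the keratin organizer Fam83h and the mesenchymal filament gene Vim. Evpl (envoplakin) fell most among those above 10 CPM in progenitors, from 17.1 to 4.92 CPM, a log2 difference of −1.80 ± 0.153 (edgeR adjusted p = 1.54e-06). Jup (plakoglobin) fell by 0.75 ± 0.0688 (edgeR adjusted p = 2.46e-06) and Dsp (desmoplakin) by 0.29 ± 0.0428 (0.000151). With N1-AcSpd 11 were lower and 0 higher, beside 16.8% of all genes lower, Dst no longer being called (−0.05 ± 0.0367, edgeR adjusted p = 0.354). The interaction for Dst was 0.10 ± 0.0519 (edgeR adjusted p = 1.0). The median log2 fold change over the 16 was −0.47 and −0.49.

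The second question was what 72 h of N1-AcSpd did to the keratins within each cell type. By edgeR, 0 of 17 members were called in CD34− progenitors, where 0.614% of all genes were, and 0 in CD34+ HFSCs, where 0.325% were. At an unadjusted p under 0.05 there were 2 in CD34− cells (Krt15 and Krt17, 13.6% of all genes) and 3 in CD34+ cells (Krt15, Krt16 and Krt17, 13.2% of all genes). DESeq2 called 1 in each, Krt17 in both, where it called 2.93% and 2.22% of all genes. The median log2 fold change over members was 0.01 in CD34− and 0.00 in CD34+ cells, as over all genes (0.00 and −0.01).

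Krt15 was lower with N1-AcSpd in 4 of 4 mice in both cell types. Its mean went from 38.6 ± 3.37 to 30.3 ± 2.45 CPM (SD, n = 4) in progenitors, where the groups did not overlap, and from 392.7 ± 56.1 to 300.2 ± 64.0 CPM in HFSCs, where they did. Non-overlap held for 1 member in each cell type, Krt15 in progenitors and Krt17 in HFSCs, beside 9.04% and 6.8% of all genes. The log2 difference was −0.35 ± 0.137 (edgeR adjusted p = 0.278) in progenitors and −0.39 ± 0.136 (0.251) in HFSCs. Within mice 1 to 4 the log2 ratio of CPM was −0.45, −0.11, −0.40 and −0.43 in progenitors and −0.83, −0.29, −0.26 and −0.21 in HFSCs. Krt32 was also lower with N1-AcSpd in 4 of 4 mice in both cell types, without a call (edgeR adjusted p = 0.923 and 0.7). Of the 17 members, 2 were higher and 2 lower in all 4 mice in progenitors, and 2 higher and 3 lower in HFSCs. The share of all genes that did so was not computed. Both cell types came from the same mice, so agreement in both, here and for Krt17 below, is a description.

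Krt17 was higher with N1-AcSpd in 4 of 4 mice in both cell types, by a small and even amount. Means went from 2598 ± 136 to 2946 ± 171 CPM in progenitors and from 1516 ± 61.1 to 1689 ± 91.8 CPM in HFSCs. The log2 difference was 0.18 ± 0.0506 (edgeR adjusted p = 0.125, DESeq2 adjusted p = 0.0172) in progenitors and 0.16 ± 0.0506 (edgeR adjusted p = 0.217, DESeq2 adjusted p = 0.0334) in HFSCs. Krt16 differed by 0.18 ± 0.0997 (edgeR adjusted p = 0.475) and 0.26 ± 0.0998 (0.298), and the non-members Krt6a by 0.14 ± 0.0778 (0.469) and 0.15 ± 0.0778 (0.439) and Krt6b by 0.21 ± 0.151 (0.613) and 0.30 ± 0.151 (0.429). Krt14 stayed at 0.01 ± 0.0482 (edgeR adjusted p = 0.983) and 0.01 ± 0.0482 (0.999), and Krt5 at −0.05 ± 0.0815 (0.901) and 0.02 ± 0.0815 (0.976).

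**Figure D5:**
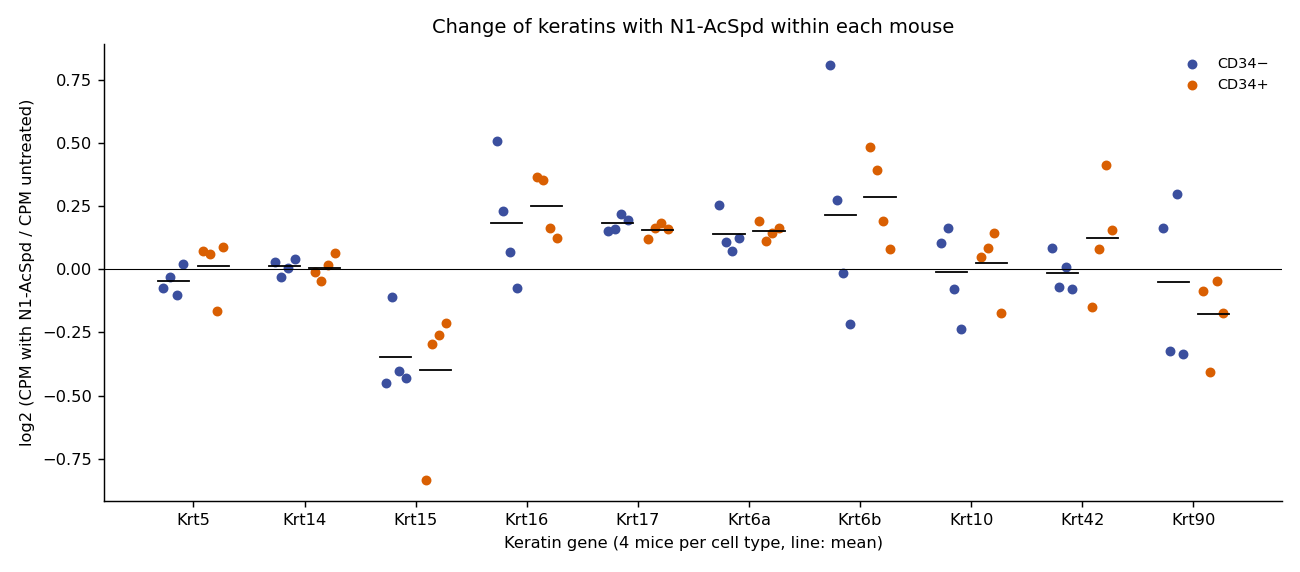
Log2 ratio of CPM with N1-AcSpd over untreated CPM within each of the 4 mice, in CD34− and CD34+ cells, for the better-covered keratins (line: mean). The 8 ratios of Krt15 lie below 0 and those of Krt17 and Krt6a above 0, while those of Krt14 and Krt5 lie on both sides.

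A comparison added after the data were seen averaged the N1-AcSpd effect over both cell types. The fit counted the CD34− and CD34+ libraries of a mouse as separate replicates, although both came from the same 4 mice. Its standard errors and p-values do not allow for that. The comparison called 2 members by edgeR, where 4.87% of all genes were called. With the mouse as a block the same 2 were called, where 1551 of 19049 genes were. Krt15 was lower by −0.37 ± 0.0964 (edgeR adjusted p = 0.0449, with 2.17% of all genes lower) and Krt17 higher by 0.17 ± 0.0358 (0.0193, with 2.7% of all genes higher). Krt16 had 0.22 ± 0.0705 (edgeR adjusted p = 0.0936), and DESeq2 called it as well (0.0188), in a comparison where DESeq2 called 8.32% of all genes. The Krt15 call was lost on leaving out any 1 library other than CD34+ mouse 3 untreated or CD34+ mouse 4 with N1-AcSpd (edgeR adjusted p up to 0.0878), and both calls were lost on leaving out any 1 mouse (0.0504 to 0.224). On the same average, 3 genes of the filament partner list were lower and 0 higher, the plakin Plec (−0.20 ± 0.0397, edgeR adjusted p = 0.0144), Dsp (−0.13 ± 0.0303, 0.0303) and the epiplakin gene Eppk1. Of these Plec was also called within progenitors by the fit of all 16 libraries (−0.27 ± 0.0561, edgeR adjusted p = 0.048). When the progenitor groups alone were fitted, 0 of 19049 genes were called. The interaction, the difference of the N1-AcSpd effect between cell types, was −0.04 ± 0.193 for Krt15 and −0.03 ± 0.0716 for Krt17, each at an edgeR adjusted p of 1.0.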

How the data were processed

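The deposited table holds counts of unique UMIs per gene in 16 libraries of a 3′ protocol. The authors demultiplexed reads with FLEXBAR, placed the UMI in the read name, pseudo-aligned the second read with kallisto 0.45.0 to mm10, assigned reads to genes with BEDTools and counted unique tags in R. The annotation release is not given in the sources used here. The submitters' notes also list FastQC 0.11.7 and DESeq2.

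Empty cells (156050) were read as 0, and 0.125% of counts had no symbol. Symbols and positions came from GENCODE (GRCm38) and promoters from RefSeq (GRCm38.p6). The 19049 genes averaging 5 or more UMIs per library were fitted with edgeR 4.0.16 (R 4.3.3) by TMM scaling and the quasi-likelihood test over all 16 libraries, 1 mean per group, two-sided, with Benjamini-Hochberg adjustment over all genes and calls at an adjusted p under 0.05. Standard errors were taken as the absolute log2 fold change over the root of F. CPM used TMM-scaled totals. Members and gene lists were chosen with earlier results of these data known. Named keratins were those with a mean of at least 50 or a call, and the others named are said to be chosen afterwards. Alternatives were library totals, DESeq2 1.42.0, other filters, the compared groups alone, a mouse block, and leaving out each library or mouse. The labels give the same mouse for equal replicate numbers, so the numbers pair the samples. Deviations of 24 same-mouse pairs correlated at 0.0285 on average (−0.0988 to 0.139). At these depths 3 UMIs equal 0.103 to 0.194 CPM. Replicates differed beyond sampling noise, with a chi-square per degree of freedom of at least 25.2.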

Additional observations from a re-analysis of the deposited data

Results flagged for a closer look

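Among 88 groups of 4 libraries, 6 held a library whose gap to its nearest neighbour exceeded Dixon's 95% critical value relative to the range, where chance gives about 1 in 20. Krt7 was lowest in N1-AcSpd CD34+ mouse 2, at 1.88 CPM against 9.84 to 11.4 in the other libraries, and in untreated CD34+ mouse 4, at 1.90 CPM against 10.2 to 11.02. Krt6b was highest in N1-AcSpd CD34− mouse 1, at 892 CPM against 631 to 652, as was its log2 ratio to Krt17, at −1.61 against −2.27 to −2.21. Krt1 was highest in untreated CD34+ mouse 3, at 0.379 CPM against 0.205 to 0.228. Krt10 was lowest in untreated CD34+ mouse 2, at 7.90 CPM (7.895) against 9.21 to 9.44. The cause was not tested for any of them.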

How the results depend on the processing

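Of the log2 fold changes of called keratins under all alternatives, 684 kept direction and side of the threshold, 68 kept direction only, and 0 reversed. Leaving out a library or mouse gave 7 to 11 called keratins untreated (7 without mouse 4, main 11) and 9 to 11 with N1-AcSpd. Over all 19049 genes the calls ranged from 4501 (without mouse 4) to 6222 untreated (main 6123) and from 4922 to 6365 with N1-AcSpd (main 6347). DESeq2 called 1 keratin in the N1-AcSpd comparison of CD34− cells and 1 in that of CD34+ cells, where edgeR called 0. The average over both cell types, 2 calls, gave 1 with library totals, 1 with no filter on low counts, 0 with an added absolute log2 fold change over 0.5, and 0 to 2 without a library or mouse. The cause was not tested. With library totals 4862 of 6621 called genes were higher in untreated CD34+ cells, against 3059 of 6123 with TMM, and 4794 of 6697 against 3147 of 6347 with N1-AcSpd.

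With the mouse as a replicate block, 10 keratins were called untreated (Krt23 lost, edgeR adjusted p = 0.0589) and 12 with N1-AcSpd (Krt42 gained, 0.0289), and no other keratin call changed.

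As shares of TMM-scaled totals in place of all UMIs, keratins with a row held 1.497% in N1-AcSpd CD34− libraries (1.441%), members 1.048% (1.009%), type I members 0.9329% (0.8983%) and basal members 0.6571% (0.6328%). Basal members held 0.6576% in untreated CD34− (0.6302%) and 0.6349% in untreated CD34+ libraries (0.659%), the opposite order, and stress members 0.1795% in untreated CD34+ libraries (0.1862%). Depth limits the 26 members under a mean of 5 UMIs.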
